A study of Mus musculus with 27 samples.

Results

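The 9 genes for dual-specificity MAP kinase phosphatases are described here across all libraries of an experiment on RAW264.7 cells, an established mouse macrophage line. The genes are Dusp1, Dusp2, Dusp4, Dusp5, Dusp6, Dusp7, Dusp8, Dusp10 and Dusp16. They were taken by symbol from the table of read counts, and all 9 were found among its 55483 genes. The cells were kept for 6 h in DMSO (the solvent control), in 1 µg/ml LPS with DMSO (called LPS below), or in the same dose of LPS with 10 µM of the tanshinone mimic TM7nox. LPS, from the outer membrane of bacteria, is a classical activator of macrophages, and tanshinone mimics are small molecules meant to block the contact between HuR and its RNA targets. The groups were 4 libraries of total RNA per treatment, 4 libraries per treatment of RNA recovered with an anti-HuR antibody (ribonucleoprotein immunoprecipitation, RIP) and 1 library per treatment of RNA recovered with control IgG, always with replicate number 3. All samples come from this 1 line, and cells given TM7nox without LPS were not analysed here.

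MAP kinases (ERK, JNK and p38) carry the LPS signal from the cell surface to the transcription and stability of cytokine mRNAs, and they are active only while both a threonine and a tyrosine of their activation loop are phosphorylated. The dual-specificity phosphatases remove both phosphates. Many of their genes are themselves switched on by MAP kinase signalling, which makes the family a negative feedback on inflammation. By location and preferred substrate they fall into nuclear enzymes that are rapidly induced (Dusp1, Dusp2, Dusp4 and Dusp5), cytoplasmic enzymes selective for ERK (Dusp6 and Dusp7), and enzymes that prefer JNK and p38 (Dusp8, Dusp10 and Dusp16). HuR is an RNA-binding protein that prefers stretches rich in U, or in A and U, often within the 3′ UTR, and it stabilises many short-lived transcripts.

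The letters that HuR is known to favour were read from the longest annotated 3′ UTR of each gene (GENCODE M39, GRCm39). The 30-base window with the most U is shown, written as DNA, for Dusp7 and Dusp6, the most and the least enriched of the 4 members that were called higher in RIP than in RNA in all 3 treatments, and for Dusp2 and Dusp4, which were not enriched. The windows are examples, and those of the other 5 members are not shown. The most U in any 30-base window was 25 for Dusp7, 21 for Dusp6 and 16 for both Dusp2 and Dusp4. It was 25 for Dusp5, 24 for Dusp10, 22 for Dusp16, 20 for Dusp1 and 19 for Dusp8. Dusp2 and Dusp4 were thus the lowest members, and Dusp16, not among the 4 enriched, lay above Dusp6. No contrast is drawn from the windows. Runs of TTTTTT or more and copies of ATTTA are in capitals. Each window lies within 3′ UTR sequence of 1 exon.
Dusp7, chr9:106251595-106251624, plus strand: ttttcttttctttctttctcTTTTTTTTTT
Dusp6, chr10:99102695-99102724, plus strand: tttgtttggcttgtatttgTTTTTTatctt
Dusp2, chr2:127179919-127179948, plus strand: aattaATTTAattaattaATTTActatatt
Dusp4, chr8:35286172-35286201, plus strand: agacttggtttctgtgtcagtttttacttt

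Total RNA libraries held 2728534 to 28285856 counts, RIP libraries 19816312 to 41449233 and IgG libraries 8873091 to 24513902. The shallowest was DMSO replicate 1 of total RNA, where Dusp8 had 0 counts, Dusp10 had 3 and Dusp6 had 6. All 8 macrophage markers examined, among them Adgre1, Csf1r and Cd68, were at a mean of 1 CPM (read counts scaled to library size) or more in each kind of library, and none of the markers of T cells, B cells, neutrophils, fibroblasts or epithelial cells was. The summed level of the macrophage markers was 3330 to 6886 CPM in total RNA, 840 to 3169 CPM in RIP and 3598 to 6069 CPM in IgG, and that of any other list reached at most 3.51 CPM. Replicates 1 and 2 differed from replicates 3 and 4 in 3574 of 14311 genes with the groups as terms, a split that each RNA and RIP group shares evenly. Among the members, Dusp1 (log2 difference -0.56, replicates 3 and 4 minus 1 and 2) and Dusp5 (-0.77) were lower in replicates 3 and 4, while Dusp8 (0.82) and Dusp16 (0.49) were higher. Values within each pair of replicates are given beside several results.

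Levels are given as CPM on 1 TMM scale (edgeR's trimmed mean of M-values) over the 27 libraries, and compared between genes only after division by the length of the canonical transcript (CPM per kb). In total RNA from DMSO, Dusp4 was the most abundant member at 18.8 ± 6.20 CPM per kb (SD, n = 4), and its libraries did not overlap those of the next gene, Dusp7, at 3.77 ± 0.642. Each of Dusp7, Dusp1, Dusp16, Dusp5, Dusp2 and Dusp6 overlapped its neighbour in that order, and Dusp10 (0.255) lay below Dusp6 without overlap, though not below the lowest library of Dusp5. Dusp8 (0.00833) came last, apart from all others. In LPS the order changed. Dusp1 came first at 72.5 ± 4.46 CPM per kb, apart from Dusp4 (36.3), Dusp5 (30.7) and Dusp2 (25.3), of which each overlapped the next, and then followed Dusp16 (15.6), Dusp6 (8.97), Dusp7 (5.78), Dusp10 (0.601) and Dusp8 (0.121). Of these last 5, only Dusp6 and Dusp7 overlapped. In LPS+TM7nox, Dusp4 (104 ± 12.4) and Dusp1 (68.9 ± 24.5) stood at the top and overlapped, Dusp5 (25.9) and Dusp16 (13.2) followed, and Dusp2 (4.07), Dusp6 (2.75) and Dusp7 (2.44) formed an overlapping series above Dusp10 (1.03) and Dusp8 (0.435).

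**Figure D1:**
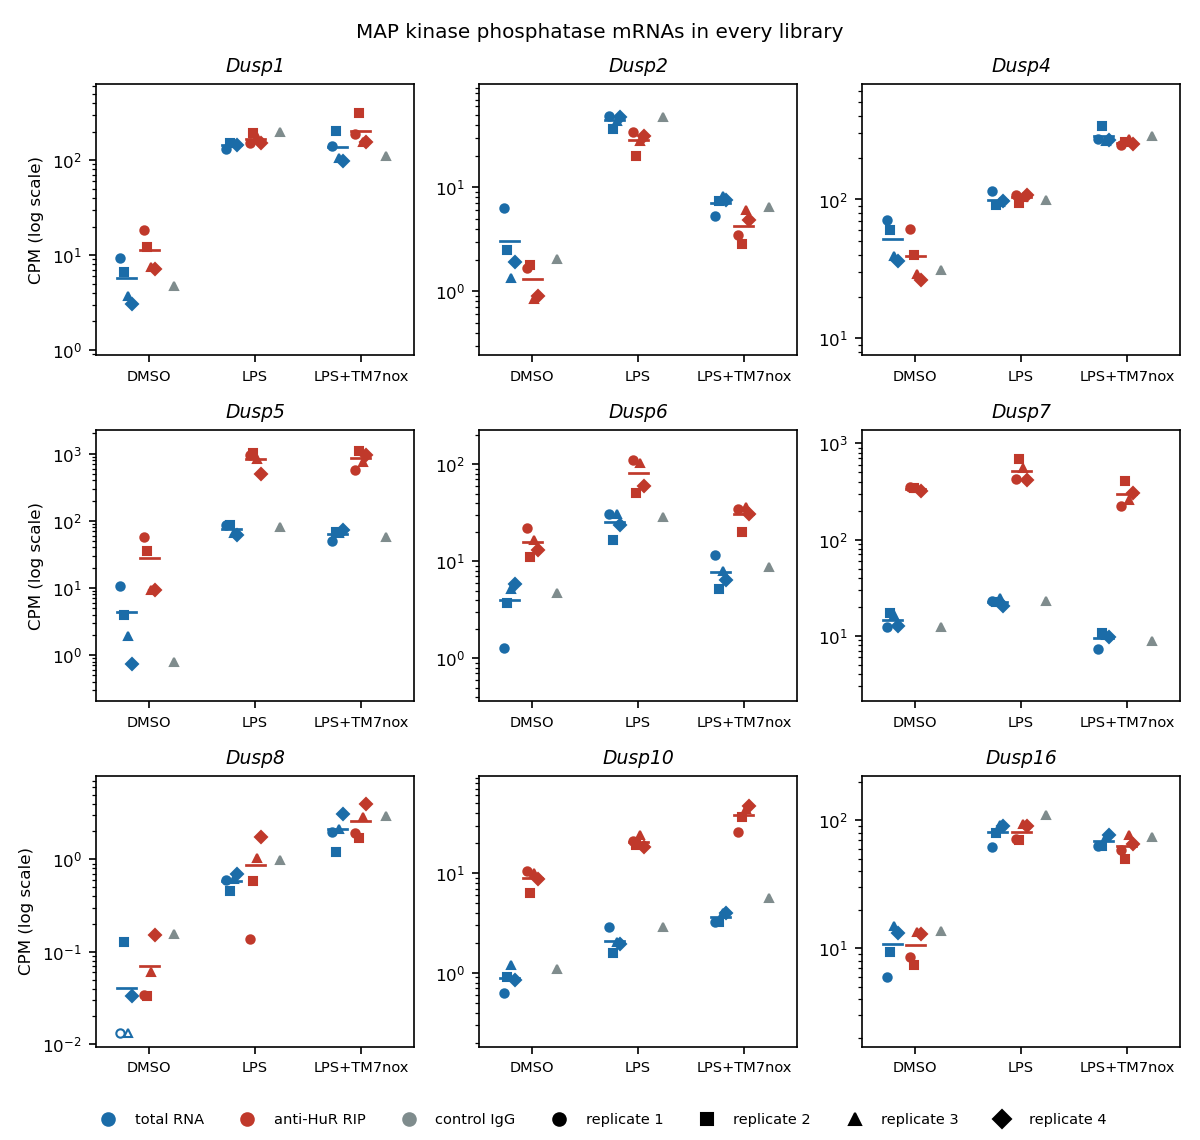
CPM (log axis) of the 9 genes in each of the 27 libraries by treatment, with colour for the kind of library, shape for the replicate number, bars for the mean of each RNA or RIP group of 4, and open symbols for libraries with 0 counts. RIP points lie far above RNA points for Dusp5, Dusp7 and Dusp10 in LPS (for Dusp7, 419 to 680 against 20.4 to 24.6 CPM), while IgG points lie near the RNA points of Dusp7 in all 3 treatments.

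The comparison of LPS with DMSO in total RNA asked which of the phosphatases respond to LPS. All 9 were higher in LPS, where 42.0% of the 12369 genes tested were called in either direction and 20.2% were higher. These shares are on the TMM scale. Scaling by total counts lowered the median of all genes by 0.28, with 5882 genes called in place of 5190. The median log2 fold change of the 9 was 2.83, against -0.04 over all genes tested. In no member did the 4 LPS and 4 DMSO libraries overlap, and groups of this comparison did not overlap for 38.7% of all genes. Calls are by edgeR's quasi-likelihood F test with Benjamini-Hochberg adjustment over all genes tested (FDR under 0.05), and folds are given as log2 values ± their standard error.

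Among the nuclear enzymes, Dusp1, which acts chiefly on p38 and JNK and restrains cytokine production in macrophages, stood at 9.33, 6.64, 3.73 and 3.09 CPM in DMSO replicates 1 to 4 and at 131, 150, 150 and 145 CPM in LPS. The LPS libraries were close together, and the DMSO libraries were higher in replicates 1 and 2. Its log2 fold change was 4.75 ± 0.34 (edgeR FDR 9.72e-08), a 27-fold rise, with 4.20 in replicates 1 and 2 alone and 5.44 in replicates 3 and 4 alone. Dusp5, a nuclear phosphatase specific for ERK, went from 10.8, 3.99, 1.90 and 0.723 CPM to 87.8, 87.4, 66.9 and 62.4 CPM. Relative to the mean, its DMSO libraries (SD 4.51 at a mean of 4.36 CPM) differed more among themselves than its LPS libraries (13.4 at 76.1 CPM). Its rise was 4.46 ± 0.55 (edgeR FDR 1.79e-05), or 5.08 without DMSO replicate 1. Within the 2 pairs of replicates it was 3.73 and 5.62. Dusp2, a phosphatase of activated immune cells that acts on ERK and p38, went from 6.36, 2.52, 1.35 and 1.91 CPM to 48.8, 36.1, 43.4 and 48.0 CPM, a log2 change of 4.12 ± 0.35 (edgeR FDR 5.5e-07), or 3.45 and 4.81 within the 2 pairs. Dusp4, which acts on ERK and JNK, started high and changed less, from 71.2, 60.4, 38.9 and 35.9 CPM to 115, 90.7, 95.7 and 97.8 CPM, or 0.93 ± 0.21 on the log2 scale (edgeR FDR 0.00224). In replicates 1 and 2 alone Dusp4 was not called (0.65, edgeR FDR 0.118).

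The 2 cytoplasmic ERK phosphatases rose to different extents. Dusp6 was at 1.27, 3.71, 5.15 and 5.79 CPM in DMSO and at 30.6, 16.4, 30.6 and 24 CPM in LPS, a log2 change of 2.54 ± 0.34 (edgeR FDR 3.3e-05). The lowest Dusp6 value, in DMSO replicate 1, rests on the 6 counts of the shallow library. Dusp7 was at 12.3, 17.2, 16.5 and 12.8 CPM in DMSO and at 23.0, 22.3, 24.6 and 20.4 CPM in LPS, a log2 change of 0.58 ± 0.15 (edgeR FDR 0.00657). This was the smallest change of the 9. Scaling by total counts lowered the median of all genes by 0.28, and Dusp7 then came to 0.30 (edgeR FDR 0.13).

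Of the enzymes that prefer JNK and p38, Dusp16 was the most abundant per kb, and stood at 5.94, 9.32, 15.0 and 13.2 CPM in DMSO and 61.9, 80.2, 92.1 and 90.6 CPM in LPS. All LPS libraries lay far above all DMSO libraries, and the log2 change was 2.83 ± 0.22 (edgeR FDR 1.91e-07). Dusp10 was at 0.636, 0.901, 1.19 and 0.855 CPM in DMSO and at 2.87, 1.58, 2.03 and 1.97 CPM in LPS, or 1.15 ± 0.28 on the log2 scale (edgeR FDR 0.00472). Dusp8 had 0, 5, 0 and 1 counts in DMSO and 14, 14, 18 and 22 counts in LPS, a log2 change of 3.31 with a 95% interval of 1.90 to 4.73 (edgeR FDR 0.00102). It was a rare transcript in every RNA library, and without DMSO replicate 2, which held 5 of the 6 DMSO counts, its log2 change was 4.88. Replicates 3 and 4 alone gave 5.01. In replicates 1 and 2 alone, Dusp7, Dusp8 and Dusp10 were not called (edgeR FDR 0.214, 0.259 and 0.194), with log2 changes of 0.62, 2.37 and 1.48.

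The comparison of LPS+TM7nox with LPS in total RNA asked how levels differ when the compound is given with LPS. Without cells given TM7nox alone, a changed response to LPS cannot be told apart from an effect of the compound by itself. Dusp2, Dusp6 and Dusp7 were lower with TM7nox, Dusp4 and Dusp8 were higher, and Dusp1, Dusp5, Dusp10 and Dusp16 were not called. In this comparison 13.8% of the 12369 genes were called, with 7.37% higher and 6.40% lower, and 5 of the 9 members. The median log2 change of the members was -0.23, against -0.00260 over all genes. The data hint that the replicate numbers pair the libraries, which the labels do not state. With the number as a block 3091 genes were called in place of 1704 and 6 members in place of 5. Groups did not overlap for 6 of the 9 members, the 5 called and Dusp10, and for 21.8% of all genes. The comparison shares the LPS libraries with the one of LPS and DMSO.

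Dusp2 had the largest decrease. From 48.8, 36.1, 43.4 and 48.0 CPM in LPS it went to 5.25, 7.34, 8.26 and 7.48 CPM with TM7nox, a 6.19-fold lower level (log2 -2.63 ± 0.31, edgeR FDR 9.6e-05). Every TM7nox library lay below every LPS library, and 0.267% of the genes tested had a lower log2 change. Dusp6 went from 30.6, 16.4, 30.6 and 24 CPM to 11.7, 5.14, 7.88 and 6.42 CPM (log2 -1.71 ± 0.32, edgeR FDR 0.00258). Dusp7 went from 23.0, 22.3, 24.6 and 20.4 CPM to 7.39, 10.7, 10.3 and 9.69 CPM (log2 -1.24 ± 0.15, edgeR FDR 0.000119). Both cytoplasmic ERK phosphatases were thus lower in all 4 same-numbered pairs, with TM7nox over LPS ratios of 0.257 to 0.381 for Dusp6 and 0.321 to 0.479 for Dusp7. Within replicates 1 and 2 alone neither passed the test (log2 -1.5, edgeR FDR 0.234, and log2 -1.33, edgeR FDR 0.0639), and within replicates 3 and 4 both did (-1.90 and -1.14).

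Dusp4 was higher with TM7nox, at 274, 336, 264 and 267 CPM against 115, 90.7, 95.7 and 97.8 CPM in LPS. Replicate 2 stood above the other 3 TM7nox libraries, and all 4 lay above all LPS libraries (log2 1.52 ± 0.21, edgeR FDR 0.000262). Dusp8 went from 14, 14, 18 and 22 counts in LPS to 41, 33, 67 and 73 counts, or from 0.451 to 0.686 CPM to 1.21 to 3.10 CPM (log2 1.83 ± 0.48, edgeR FDR 0.0199). This call depends on single libraries. Without LPS replicate 2, 3 or 4 the edgeR FDR of Dusp8 was 0.073, 0.0554 and 0.0537, and without TM7nox replicate 3 or 4 it was 0.0579 and 0.0856. It was not called within replicates 1 and 2 alone (1.59, edgeR FDR 0.618). Dusp10 was at 3.26, 3.23, 3.96 and 3.99 CPM with TM7nox, above all 4 LPS libraries (1.58 to 2.87 CPM). It missed the threshold (log2 0.78 ± 0.26, edgeR FDR 0.0664) and passed it in replicates 3 and 4 alone (1.01, edgeR FDR 0.0106), with the replicate block (0.80, edgeR FDR 0.0358), by DESeq2 (adjusted p 0.0203) and without LPS replicate 1 (0.97, edgeR FDR 0.0333).

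Dusp1, Dusp5 and Dusp16 were not called, with 95% intervals of the log2 change of -0.67 to 0.53, -1.20 to 0.71 and -0.66 to 0.19. Dusp1 was at 140, 205, 105 and 98.4 CPM with TM7nox against 131 to 150 CPM in LPS. Its TM7nox libraries of replicates 1 and 2 lay level with or above LPS and those of replicates 3 and 4 below it. The log2 change was 0.29 (edgeR FDR 0.793) in replicates 1 and 2 alone and -0.52 (edgeR FDR 0.00256) in replicates 3 and 4 alone. Dusp5 was at 50.4, 67.4, 65.1 and 73.7 CPM against 62.4 to 87.8 CPM, with -0.58 and 0.12 on the log2 scale within the 2 pairs of replicates, neither called. Dusp16 was at 62.8, 62.6, 73.4 and 76.8 CPM against 61.9 to 92.1 CPM. None of these 3 intervals excludes a modest change.

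**Figure D2:**
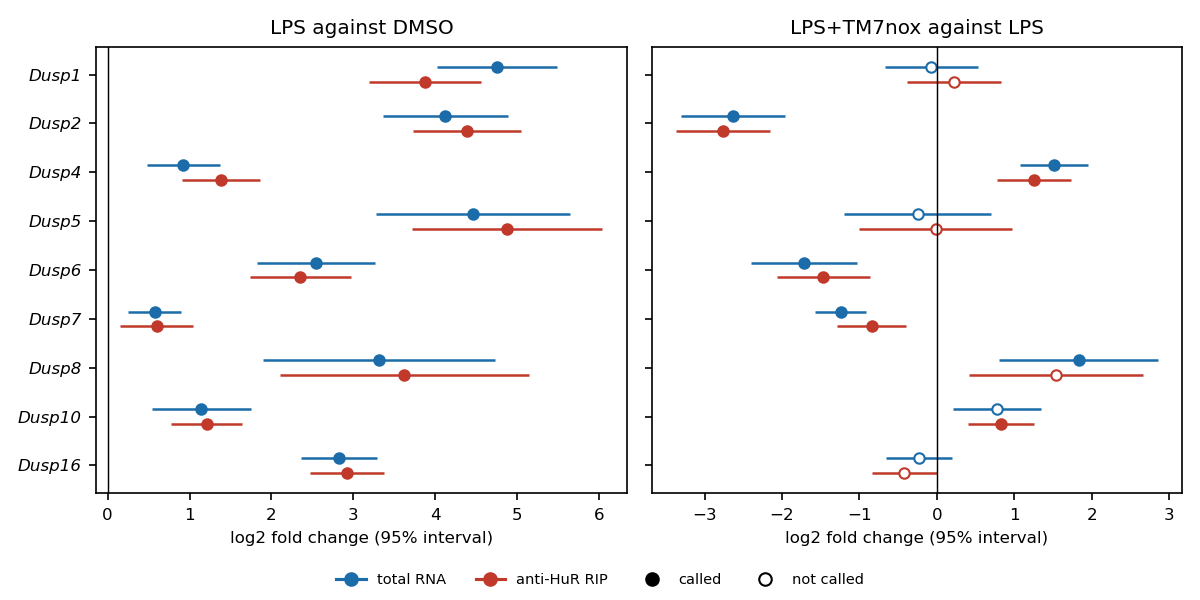
log2 fold changes with 95% intervals for LPS against DMSO (left) and LPS+TM7nox against LPS (right), in total RNA (blue) and anti-HuR RIP (red), filled where called at an FDR under 0.05. On the left all 18 points are filled and to the right of 0, and on the right Dusp2, Dusp6 and Dusp7 lie below 0 and Dusp4 above 0 in both kinds of library.

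Set against DMSO, cells in LPS+TM7nox had 7 of the 9 members higher and 1 lower in RNA, where 47.3% of the genes tested were called (23.7% higher, 23.6% lower). Scaling by total counts lowered the median of all genes by 0.32, with 6422 genes called in place of 5850. This comparison shares its libraries with the other 2 in RNA, so only its own values are given. Dusp1 (log2 4.68), Dusp5 (4.22), Dusp16 (2.59), Dusp4 (2.44), Dusp10 (1.92) and Dusp2 (1.49) were higher, and Dusp8 went from 6 counts over the 4 DMSO libraries to 33 to 73 counts per library. Dusp7 was lower than in DMSO, at 7.39 to 10.7 against 12.3 to 17.2 CPM (log2 -0.66 ± 0.15, edgeR FDR 0.0025). Dusp6, at 5.14 to 11.7 against 1.27 to 5.79 CPM, was not called (log2 0.83, edgeR FDR 0.0507). It was called with the replicate block (0.71, edgeR FDR 0.039) and by DESeq2 (0.91, adjusted p 0.0149). In edgeR, DESeq2 size factors (0.87, edgeR FDR 0.0394) and no filter on low counts (0.88, edgeR FDR 0.000323) gave the call too. So did leaving out TM7nox replicate 2 (0.99, edgeR FDR 0.0313) or DMSO replicate 4 (1.03, edgeR FDR 0.0368). Dusp2 and Dusp6 had TM7nox libraries that overlapped those of DMSO, and the other 7 had none, as had 41.8% of all genes. Within replicates 1 and 2 alone, Dusp2 (0.69, edgeR FDR 0.356), Dusp7 (-0.71, edgeR FDR 0.132), Dusp8 (3.96, edgeR FDR 0.0529) and Dusp10 (2.02, edgeR FDR 0.0668) were not called, and replicates 3 and 4 alone gave 2.31 for Dusp2 and 7.01 for Dusp8. Dusp5 was at 3.15 and 5.74 within the 2 pairs. Leaving out 1 library moved the log2 change of Dusp5 to 4.83 (DMSO replicate 1) and that of Dusp8 from 5.15 to 6.71 (DMSO replicate 2).

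RNA recovered with anti-HuR showed the same members higher in LPS. Of 13614 genes tested in the RIP libraries, 44.7% were called between LPS and DMSO and 23.5% were higher, and all 9 members were higher. The median log2 change of the members was 2.92, against -0.00444 over all genes, and 8 of the 9 did not overlap between the groups, as did 41.6% of all genes. The largest was that of Dusp5, from 56.7, 35.7, 9.20 and 9.19 CPM to 967, 1039, 829 and 495 CPM (log2 4.87 ± 0.55, edgeR FDR 3.16e-06). Its DMSO libraries of replicates 1 and 2 were well above those of replicates 3 and 4, and the log2 change was 4.40 and 6.08 within the 2 pairs. Dusp2 rose by 4.39 (3.91 and 5.00 within the 2 pairs), Dusp1 by 3.87, Dusp16 by 2.92, Dusp6 by 2.35, Dusp4 by 1.38 and Dusp10 by 1.21. Dusp8 had 7 counts over the 4 DMSO libraries and 3, 11, 20 and 30 in LPS, with an overlap at the low end (log2 3.62, 95% interval 2.11 to 5.14, and 3.02 without LPS replicate 4). Dusp7 changed least, from 348, 341, 340 and 318 CPM to 429, 680, 549 and 419 CPM (log2 0.60 ± 0.21, edgeR FDR 0.0282).

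That call for Dusp7 in RIP was not firm. Leaving out DMSO replicate 1, 2, 3 or 4 gave edgeR FDRs of 0.0688, 0.0778, 0.0918 and 0.0859, and leaving out LPS replicate 2 or 3 gave 0.131 and 0.074. Without LPS replicate 2 its log2 change was 0.40. It was called within neither pair of replicates (0.64, edgeR FDR 0.202, and 0.47, edgeR FDR 0.162). Scaling by total counts lowered the median of all genes by 0.63 and put Dusp7 at -0.04 (edgeR FDR 0.848).

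With TM7nox the RIP libraries gave 5 called members, 3 lower and 2 higher, where 16.2% of genes were called (8.64% higher, 7.61% lower; 4577 genes with the replicate block in place of 2212). Groups did not overlap for these 5 members, nor for 18.7% of all genes. Dusp2 went from 33.8, 20.0, 27.9 and 31.3 CPM to 3.48, 2.85, 5.99 and 4.86 CPM (log2 -2.76 ± 0.29, edgeR FDR 1.55e-05). Dusp6 went from 112, 50.1, 104 and 60.0 CPM to 34.9, 20.1, 36.6 and 30.7 CPM (log2 -1.46 ± 0.28, edgeR FDR 0.00243). Dusp7 went from 429, 680, 549 and 419 CPM to 221, 409, 257 and 306 CPM (log2 -0.84 ± 0.21, edgeR FDR 0.0125). The same 3 genes were the lower ones in total RNA, and for each of them every TM7nox library lay below every LPS library. Within replicates 1 and 2 alone Dusp6 was not called (log2 -1.60, edgeR FDR 0.0502). Dusp7 was not called within either pair of replicates alone (log2 -0.85, edgeR FDR 0.188, and -0.78, edgeR FDR 0.0886).

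Dusp4 was higher in RIP with TM7nox, at 246, 257, 273 and 250 CPM against 108, 94.8, 105 and 107 CPM (log2 1.26 ± 0.22, edgeR FDR 0.00141). Dusp10 was higher, at 26.0, 36.2, 43.5 and 46.9 CPM against 20.9, 19.2, 24.3 and 18.5 CPM (log2 0.84 ± 0.20, edgeR FDR 0.0101). Within replicates 1 and 2 alone Dusp10 was not called (0.60, edgeR FDR 0.228). Dusp8 had 45, 25, 71 and 44 counts against 3, 11, 20 and 30, with 1.54 ± 0.53 on the log2 scale (edgeR FDR 0.0579). It was called with the replicate block (1.72, edgeR FDR 0.00124), by DESeq2 (adjusted p 0.0292), with no filter on low counts (1.52, edgeR FDR 0.0101) and without LPS replicate 4 (2.13, edgeR FDR 0.0208). Dusp16 was at 58.6, 50.1, 76.2 and 65.5 CPM against 71.2, 70.1, 92.8 and 90.2 CPM, lower in all 4 same-numbered pairs, and was called only with the replicate block (log2 -0.42, edgeR FDR 0.161 without the block and 0.00929 with it). Dusp1 (0.23) and Dusp5 (-0.01) were not called, with intervals of -0.38 to 0.83 and -1.0 to 0.98.

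RIP over RNA, the log2 ratio of the level in RIP to the level in total RNA of the same treatment, describes how strongly anti-HuR recovered each transcript relative to the typical gene. Dusp7, Dusp10, Dusp5 and Dusp6 were higher in RIP in all 3 treatments, Dusp4, Dusp8 and Dusp16 were called in none, and Dusp1 and Dusp2 differed by treatment in their calls. Most genes differ between these kinds of library. Of 14311 genes tested, 70.4% were called in DMSO (37.0% higher, 33.4% lower), 63.7% in LPS (32.9% higher, 30.8% lower) and 69.9% in LPS+TM7nox (35.2% higher, 34.8% lower). Of the 9 members, 5, 4 and 4 were higher and 1, 0 and 1 lower in the same order, so the counts stand near the background and the members are better told by their sizes. RIP started from a detergent lysate and total RNA from cell pellets, and this difference cannot be told apart from recovery by the antibody in this ratio.

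Dusp7 had the highest ratio, 4.61 ± 0.22 in DMSO, 4.53 ± 0.22 in LPS and 4.93 ± 0.23 in LPS+TM7nox (edgeR FDR 4.98e-15, 5.45e-15 and 1.28e-15). Per library its RIP level was 18.6 to 38.2 times the RNA level of the same number, and 97.3% of genes tested in LPS had a lower ratio. A transcript at 12.3 to 17.2 CPM in DMSO RNA was thus at 318 to 348 CPM in DMSO RIP. Dusp10 had ratios of 3.30 ± 0.24, 3.31 ± 0.22 and 3.36 ± 0.22, at 6.25 to 10.4 CPM in DMSO RIP against 0.636 to 1.19 CPM in RNA. Dusp5 had 3.13 ± 0.57, 3.46 ± 0.53 and 3.70 ± 0.54, with wider errors than the other 3, and 2.52 in DMSO without RIP replicate 1. Dusp6 had 1.96 ± 0.33, 1.69 ± 0.31 and 1.97 ± 0.32, and 2.57 and 1.5 in DMSO within the 2 pairs of replicates. These 4 are 1 nuclear and 2 cytoplasmic ERK phosphatases and 1 enzyme that prefers JNK and p38.

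Dusp1 was higher in RIP in DMSO (1.21 ± 0.32, edgeR FDR 0.00148), at 18.3, 12.1, 7.50 and 7.18 CPM against 9.33, 6.64, 3.73 and 3.09 CPM. In LPS it was at 152, 194, 176 and 153 CPM against 131, 150, 150 and 145 CPM and was not called (0.23 ± 0.29, edgeR FDR 0.511). In LPS+TM7nox its ratio was 0.55 ± 0.29 (edgeR FDR 0.095, 0.0199 with the replicate block, and 0.0196 without RNA replicate 2). It was called by DESeq2 (0.79, adjusted p 0.0234) and with DESeq2 size factors in edgeR (0.79, edgeR FDR 0.0296). Dusp2 was lower in RIP in DMSO (-0.82 ± 0.34, edgeR FDR 0.0356) and LPS+TM7nox (-0.76 ± 0.30, edgeR FDR 0.0282), and in LPS its ratio was -0.63 ± 0.28 (edgeR FDR 0.0542, 0.0288 with the replicate block, and 0.0468 without RNA replicate 2). The call for Dusp2 in DMSO was lost without the shallow RNA replicate 1 (-0.50, edgeR FDR 0.141), without RNA replicate 2 (0.0604) and without RIP replicate 3 or 4 (0.0886 and 0.0905). In LPS+TM7nox it was lost without any 1 of 5 libraries: RIP replicate 1, 2 or 4 (edgeR FDR 0.123, 0.144 and 0.0529) and RNA replicate 3 or 4 (0.0812 and 0.0525). By DESeq2 the call for Dusp2 was lost in LPS+TM7nox (-0.55, adjusted p 0.131) and remained in DMSO (-0.78, adjusted p 0.0397). With DESeq2 size factors in edgeR both were lost (-0.54, edgeR FDR 0.13, and -0.68, edgeR FDR 0.0984). The ratios of Dusp4 were -0.25, 0.06 and -0.18, those of Dusp16 0.01, -0.01 and -0.17, and those of Dusp8 0.28, 0.54 and 0.26, none called. The DMSO value of Dusp8 rests on 7 counts in RIP and 6 in RNA. It ran from -0.25 to 1.82 when 1 library was left out, the latter without RNA replicate 2, and was -1.46 and 2.30 within the 2 pairs of replicates. In LPS it was -0.57 and 1.04 within the pairs. Without RIP DMSO replicate 1 the ratio of Dusp4 in DMSO was -0.55 (edgeR FDR 0.0104), and with no filter on low counts it was -0.50 (edgeR FDR 0.0453). With no filter Dusp2 in LPS was called too (-0.71, edgeR FDR 0.00651). Within replicates 3 and 4 alone, Dusp4 in DMSO (-0.37, edgeR FDR 0.0338), Dusp2 in LPS (-0.66, edgeR FDR 0.00511) and Dusp1 in LPS+TM7nox (0.52, edgeR FDR 0.00597) were called, and within replicates 1 and 2 alone Dusp2 in DMSO was not (-1.04, edgeR FDR 0.0532). Scaling by total counts lowered the median ratio of all genes by 0.76, 1.00 and 0.98 in the 3 treatments, and Dusp1 in DMSO (0.42, edgeR FDR 0.239) and Dusp6 in LPS (0.67, edgeR FDR 0.0626) were then not called. On that scale Dusp4 (-1.08, -0.95 and -1.18) and Dusp16 (-0.74, -0.99 and -1.15) were called lower in all 3 treatments, and Dusp1 (-0.78, edgeR FDR 0.0195) and Dusp2 (-1.63, edgeR FDR 6.9e-05) were called lower in LPS.

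**Figure D3:**
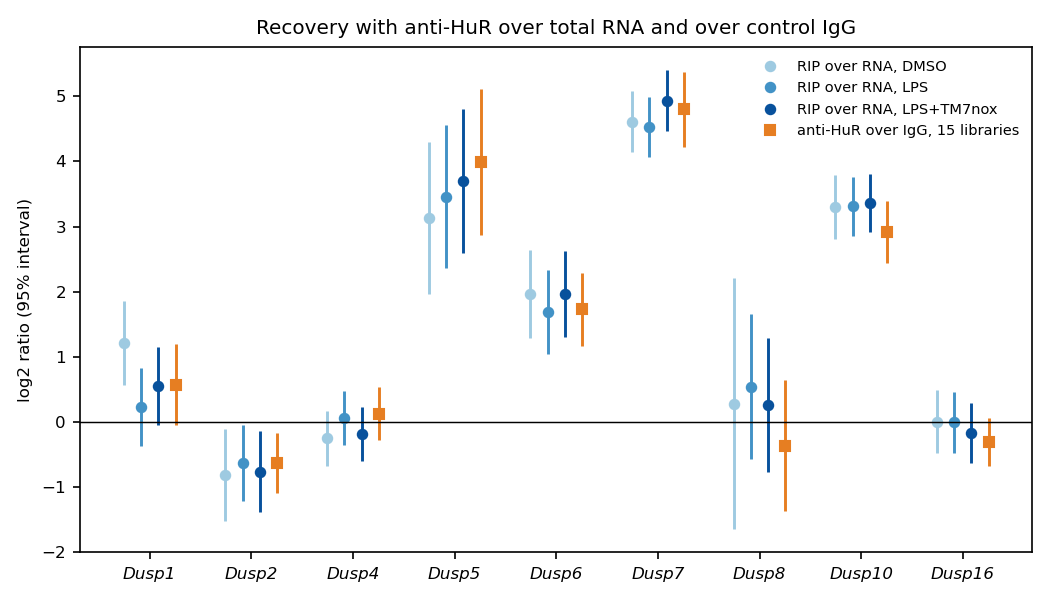
log2 ratio of RIP to total RNA in DMSO, LPS and LPS+TM7nox (blue circles) and of anti-HuR to IgG over 15 libraries (orange squares) for each gene, with 95% intervals. Dusp7, Dusp10, Dusp5 and Dusp6 lie above 0 by all 4 measures, which share the RIP libraries (Dusp7 at 4.53 to 4.93), and the intervals of Dusp4, Dusp8 and Dusp16 cross 0.

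The IgG libraries hold what the beads retain without the HuR antibody. Their comparison uses the same 12 RIP libraries as RIP over RNA, with 3 IgG libraries, all of replicate 3, so it is not independent of those ratios. In IgG, Dusp7 was at 12.3, 23.2 and 8.95 CPM in DMSO, LPS and LPS+TM7nox, Dusp5 at 0.779, 79.6 and 58.2 CPM, Dusp10 at 1.09, 2.88 and 5.59 CPM and Dusp6 at 4.70, 28.4 and 8.77 CPM. These IgG levels were 0.411 to 1.42 times those of total RNA with the same number for these 4 genes. With treatment as a covariate over 15 libraries, anti-HuR was higher than IgG for Dusp7 (log2 4.80 ± 0.28, edgeR FDR 4.78e-12), Dusp5 (3.99 ± 0.54, edgeR FDR 1.09e-06), Dusp10 (2.92 ± 0.23, edgeR FDR 3.04e-10) and Dusp6 (1.73 ± 0.27, edgeR FDR 7.6e-06). Dusp2 was lower (-0.63 ± 0.22, edgeR FDR 0.0196), and the other 4 were not called. Of 18282 genes tested, 57.9% were called, 29.8% higher and 28.1% lower. Dusp1 stood at 196 CPM in the single IgG library of LPS, above all 4 RIP libraries of LPS (152 to 194 CPM). Its log2 difference was 0.57 (edgeR FDR 0.108), 1.12 (edgeR FDR 0.00643) without that library, 0.62 (edgeR FDR 0.0147) with no filter on low counts, and 0.44 (edgeR FDR 0.0118) over the libraries of replicate 3 alone, the only number that IgG has. The call for Dusp2 was lost without the same library (-0.53, edgeR FDR 0.142), and without RIP LPS replicate 2 (0.0556) or 3 (0.0542) or RIP DMSO replicate 4 (0.051). Scaling by total counts lowered the median of all genes by 1.08, and Dusp4 (-0.99), Dusp8 (-1.48) and Dusp16 (-1.41) were then called lower than IgG. There is 1 IgG library per treatment, so no test within a treatment was made.

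Whether recovery relative to the typical gene changed with treatment was tested as an interaction. The scaling sets the typical gene near no change, so this test cannot show a general gain or loss of recovery. Scaling by total counts moved the median change of all genes by -0.23 (LPS against DMSO) and 0.015 (LPS+TM7nox against LPS). Between LPS and DMSO, 6 of 14311 genes were called (0.0419%, with 0.0140% higher and 0.0280% lower) and 0 of the 9 members by edgeR, with 1 member and 7.27% of genes at an unadjusted p under 0.05. That member was Dusp1 (log2 change of the ratio -0.99, 95% interval -1.87 to -0.11, edgeR FDR 0.634), named here after its value was seen, and the others reached up to 0.33 for Dusp5. Between LPS+TM7nox and LPS, 1 gene was called (0.00699%) and 0 members, with 0 members and 5.39% of genes at an unadjusted p under 0.05. By DESeq2, 0 members were called in either interaction. Their changes of the ratio with TM7nox lay between -0.28 for Dusp8 and 0.41 for Dusp7 (95% interval -0.16 to 0.97). For Dusp2, whose level fell in both RNA and RIP, the interval was -0.98 to 0.72, which spans 0.

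The letters of the 3′ UTRs were set beside these ratios as a description over 9 genes. The pentamer ATTTA was counted on the transcript strand only, with overlapping copies included. The heptamer TATTTAT was counted likewise, and each copy of it contains the pentamer. Runs of U were counted as copies of TTTTTT, which may overlap. In Dusp7, Dusp5, Dusp10 and Dusp6 the 3′ UTR held 10, 10, 7 and 18 copies of TTTTTT and 0, 2, 3 and 1 copies of ATTTA, and no TATTTAT. Dusp1 held 8 copies of TTTTTT, 4 of ATTTA and 3 of TATTTAT, the most TATTTAT among the 9. Dusp2 held 4 copies of ATTTA, 1 of TATTTAT and no TTTTTT, and Dusp4 held 2 copies of ATTTA and no TTTTTT or TATTTAT. Dusp8 held 5 copies of the pentamer, 2 of the heptamer and 2 of the run of U, and Dusp16 held 3, 0 and 2. Among 20676 coding genes with a 3′ UTR of at least 50 bases, 72.8% held an ATTTA, 32.5% a TATTTAT and 60.0% a TTTTTT. Of genes with a 3′ UTR within 25% of the length, fewer copies of TTTTTT were found in 80.7% for Dusp7 (2110 bases), 88.2% for Dusp5 (1426 bases), 85.8% for Dusp10 (1122 bases), 97.3% for Dusp6 (1200 bases) and 91.0% for Dusp1 (962 bases), and in 30.6% for Dusp16 (2416 bases), 19.1% for Dusp8 (3534 bases) and 0% for Dusp2 (787 bases) and Dusp4 (1111 bases), which have no copy. Fewer copies of ATTTA were found in 88.8% for Dusp2, 84.3% for Dusp1, 68.3% for Dusp10, 51.3% for Dusp4, 41.1% for Dusp5, 39.5% for Dusp8, 35.8% for Dusp16, 22.8% for Dusp6 and 0% for Dusp7. For TATTTAT the share was 98.3% for Dusp1, 81.0% for Dusp2 and 75.8% for Dusp8, and 0% for the other 6, which have no copy. All these shares depend on the transcript chosen. With the 3′ UTR of the transcript with the longest coding sequence, Dusp5 held 1 ATTTA in 1109 bases (22.4%), and Dusp8 was at 59.2% for ATTTA in 2371 bases. The copies of TTTTTT were the same for each member. The ratio of Dusp1 was 1.21 in DMSO, 0.23 in LPS and 0.55 in LPS+TM7nox, called in DMSO only. A match of letters is not a measured binding site.

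**Figure D4:**
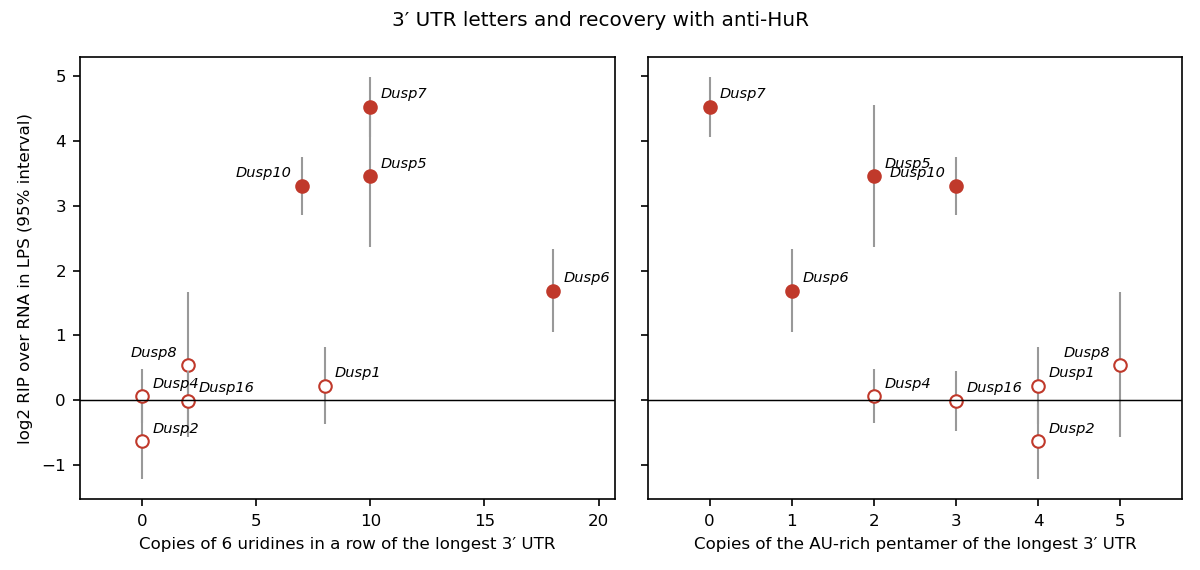
log2 RIP over RNA in LPS (vertical axis, 95% intervals, filled where called higher) of the 9 genes against the copies of 6 uridines in a row (left) and the copies of the AU-rich pentamer (right) in the longest 3′ UTR. The 4 filled genes hold 7 to 18 copies of the run of uridines, Dusp1 with 8 has a ratio of 0.23 (1.21 in DMSO, not plotted), and the gene with 0 copies of the pentamer, Dusp7, has the highest ratio.

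The genes lie on 9 chromosomes (GENCODE M39, GRCm39) and share no exon on the same strand with another gene. Those the results turn on are Dusp2 (ENSMUSG00000027368, chr2:127177957-127180296, plus strand), Dusp4 (ENSMUSG00000031530, chr8:35274442-35287048, plus strand), Dusp6 (ENSMUSG00000019960, chr10:99086564-99103361, plus strand) and Dusp7 (ENSMUSG00000053716, chr9:106245143-106252923, plus strand). Dusp5 (ENSMUSG00000034765) is at chr19:53517532-53530862 on the plus strand and Dusp10 (ENSMUSG00000039384) at chr1:183745499-183807842 on the plus strand. Exons of Ergic1 overlap those of Dusp1 on the other strand, and exons of predicted genes or uncharacterised transcripts do so for Dusp2, Dusp5, Dusp6, Dusp8, Dusp10 and Dusp16. Whether counting used the strand is not given in the sources used here, so reads of those overlaps may belong to either gene. Dusp4 and Dusp7 have no such overlap.

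Other genes of the pathway came from lists chosen with earlier results of these data known. In RNA, 39 of the 74 tested (52.7%) were called between LPS and DMSO, 21 higher and 18 lower, against 42.0% of all genes (20.2% higher, 21.7% lower). Of 9 other dual-specificity phosphatases tested 0 were higher and 2 lower in LPS (median log2 change -0.47), with Dusp3 at 40.5 against 72.0 CPM (-0.86). Of 8 MAP kinases, 2 were higher and 1 lower, with Mapk6 at 0.35 and the p38 gene Mapk14 at -0.59. Of 18 kinases that act upstream of MAP kinases, 5 were higher and 7 lower. Map3k8, which drives ERK activation after LPS, rose by 2.55 on the log2 scale, and Map3k4 changed by -1.59. Of 8 kinases activated by MAP kinases, 1 was higher, Mapkapk2 (1.63), and 3 were lower, with Mknk2 at -1.25. Of 8 other phosphatases that act on MAP kinases, 2 were higher and 1 lower (Ppm1l 0.60, Ppm1d -0.95). Of 23 feedback inhibitors and immediate-early factors downstream of MAP kinases, 11 were higher and 4 lower, with Phlda1 at 4.63 and the ETS factor Etv5 at -1.67.

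With TM7nox, 15 of the 74 genes of these lists tested in RNA were called (20.3%), 7 higher and 8 lower, against 13.8% of all genes. None of the 9 other dual-specificity phosphatases was called by edgeR in RNA or in RIP. In RNA, 2 MAP kinases were higher (Mapk9, a JNK gene, 0.72), 3 upstream kinases lower (Map3k8 -1.24), 1 activated kinase higher (Rps6ka2 1.38) and 1 other phosphatase higher (Ppm1a 0.44). Of the feedback and immediate-early genes, 3 were higher and 5 lower, with Atf3 at 1.5 and Fos at -1.27. Map3k8 went from 32.7 to 13.8 CPM in RNA and was at -1.53 on the log2 scale in RIP. In RIP, 21 of 75 genes of these lists were called (28.0%), 9 higher and 12 lower, against 16.2% of all genes. There 2 MAP kinases were higher, 1 upstream kinase was higher and 4 lower, 2 of 9 activated kinases were higher and 2 lower, 1 other phosphatase was higher and 1 lower, and 3 feedback and immediate-early genes were higher and 5 lower. Among genes with a mean of at least 5 CPM, the largest called log2 changes of each direction in each list were as follows. They were Egr3 (-1.64), Map3k8 (-1.53), Jun (1.00), Mapkapk2 (-0.99), Rps6ka2 (0.84), Map3k2 (0.82), Mapk6 (0.77), Ppm1b (0.64) and Ppp2cb (-0.57).

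The genes whose levels ran most like each member were sought by Pearson r of log2 CPM over the 24 RNA and RIP libraries among 8314 candidates. The points share libraries, treatments and the split between RNA and RIP, so r is a description only. Dusp1 ran most like Gbp7 (0.985), Cd274 (0.982) and Zfp36 (0.977), and Dusp5 like Il1rn (0.988), Plaur and Trim30c. Dusp16 ran most like Rassf4 (0.989), Nos2 and Edn1, and Dusp2 like Slc25a22 (0.954), Xylt2 and Nfkbid. Dusp4 ran most like Uhrf1bp1l (0.982), Fam219a and Leprotl1, and Dusp6 like Ubtd2, Kctd12 and Hlx (0.933 to 0.939). Dusp7 ran most like St3gal4 (0.996), Psme3 and Tcf4, where over the 12 RNA libraries alone r was 0.848 to 0.911. Dusp10 ran most like Ypel5, Lrrc8d and Ppp4r2 (0.985 to 0.986) and Dusp8 like Tbc1d9, Fam129a and Gtpbp2 (0.943 to 0.952). Among the members themselves over the 12 RNA libraries, r was highest between Dusp1 and Dusp5 (0.97) and lowest between Dusp4 and Dusp7 (-0.47).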

How the data were processed

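The authors deposited 1 table of raw read counts per gene (whole numbers, no normalization) for 55483 mouse genes in 27 libraries, with symbols per the file headers. Per the submitters' processing notes, the build was GRCm39 and FastQC 0.11.9, STAR, HTSeq and DESeq2 were used, with no roles stated; for the annotation release and strand setting, nothing was given in the sources used here. Libraries came from fragmented RNA with the SMART-Seq Stranded kit, per the labels' protocols. The labels do not say that replicates are separate cultures, so p-values measure the spread between these samples. No molecular identifiers are stated, so PCR copies count as reads. No pair of replicates agreed within sampling noise (chi-square per gene 38.0 to 213 over 36 pairs).

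The tests on counts used edgeR 4.0.16 (R 4.3.3) and were two-sided quasi-likelihood F tests, TMM scaling, genes kept by filterByExpr (minimum count 10), Benjamini-Hochberg adjustment over all genes tested, called under 0.05. The 12 RNA and the 12 RIP libraries were fitted apart, RIP over RNA and its changes in the 24 together, and anti-HuR against IgG in 15 with treatment as covariate. Intervals are 95%. All 9 members passed every filter. The script was tested on simulated counts. 3′ UTRs and transcript lengths came from GENCODE M39.

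Same-numbered libraries deviated together from their group means (correlations 0.194 to 0.543 over 8 pairs of groups). For libraries of other numbers the correlations ran from -0.42 to 0.37, and the 2 ranges overlap. That the numbers pair the samples is thus a hint from the data, since the labels do not state it. The main fit has no block, and fits with the replicate block are given where they change a call. Alternatives were DESeq2 1.42.0, its size factors, total counts, no filter, the block, each pair of replicates alone and each library left out. The members and lists were chosen with earlier results of these data known. The named-gene rule takes, besides the members, the gene of each list with the largest called log2 change in each direction provided its mean CPM in the fitted libraries was 5 or more, and the 3 genes most correlated with each member. Protein sequences were not analysed here. The sequence windows of some members are not reported here.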

Additional observations from a re-analysis of the deposited data

Results flagged for a closer look

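In total RNA from LPS+TM7nox, Dusp4 in replicate 2 stood apart from the other 3 libraries, at 336 CPM against 264 to 274 CPM. It was the only such library among 54 groups of 4 examined (the 9 genes in 6 groups), and chance sets about 1 in 20 groups apart. Without that library Dusp4 was still called in total RNA between LPS+TM7nox and LPS.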

How the results depend on the processing

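Precision was limited by the counts of Dusp8 (6 over the 4 DMSO RNA libraries) and by the shallow RNA DMSO replicate 1. With the replicate block, 3091 genes differed in RNA and 4577 in RIP between LPS+TM7nox and LPS, and the changes of RIP over RNA gave 50 genes (LPS against DMSO) and 2 genes (LPS+TM7nox against LPS). Beyond the members named beside their results, the block changed no call of a member.

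With replicates 1 and 2 alone the counts were 1668 genes and 5 members (RNA, LPS against DMSO), 168 and 2 (RNA, LPS+TM7nox against LPS), 2246 and 4 (RNA, LPS+TM7nox against DMSO), 3392 genes (RIP, LPS against DMSO), 789 and 2 (RIP, LPS+TM7nox against LPS) and 0 genes in both changes of the ratio. With replicates 3 and 4 alone, 3489 genes in RNA and 1070 in RIP differed with TM7nox, and the changes of the ratio gave 13 and 0. These fits have 2 libraries per group. Total counts gave 7 members for RIP over RNA in LPS, 8 against IgG, and 27 and 2 genes for the changes of the ratio. No filter gave 49 and 5 and DESeq2 67 and 3, and leaving out 1 library gave 4 to 11 and 1 to 3. The cause was not tested.

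Among the listed values whose sign turned, only Dusp7 in RIP (LPS against DMSO) had been called. For the changes of the ratio only the lowest and the highest member are listed, and the signs of other members turned too. With replicates 1 and 2 alone the listed values that turned were Dusp1 0.29 (RNA, TM7nox), Dusp8 -1.46 (ratio, DMSO), Dusp4 -0.0193 and Dusp8 -0.57 (ratio, LPS) and Dusp8 0.76 (change of ratio, TM7nox). With replicates 3 and 4 alone the listed values that turned were Dusp5 0.12 (RNA, TM7nox), Dusp1 -0.0862 and Dusp5 0.38 (RIP, TM7nox) and Dusp16 -0.0403 (ratio, DMSO). With total counts these were Dusp7 -0.0405 (RIP, LPS against DMSO), Dusp8 -0.36 and Dusp16 -0.74 (ratio, DMSO), Dusp1 -0.78, Dusp4 -0.95 and Dusp8 -0.44 (ratio, LPS), Dusp1 -0.48 and Dusp8 -0.72 (ratio, LPS+TM7nox), and Dusp1 -0.54 and Dusp4 -0.99 (IgG). With the replicate block these were Dusp5 0.10 (RIP, TM7nox) and Dusp16 0.0046 (ratio, LPS). DESeq2 and its size factors both gave Dusp16 0.17 (ratio, LPS) and Dusp4 0.0426 and Dusp16 0.0471 (ratio, LPS+TM7nox). No filter gave Dusp16 -0.19 (ratio, DMSO) and Dusp4 -0.0115 (ratio, LPS), and replicate 3 alone gave Dusp16 0.0535 (IgG).

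Over fits that each left out 1 library, the listed log2 values whose sign turned ran from -0.33 to 0.0622 for Dusp1 (RNA, TM7nox), from -0.0359 to 0.35 for Dusp1 (RIP, TM7nox), from -0.18 to 0.14 for Dusp5 (RIP, TM7nox), from -0.25 to 1.82 for Dusp8 (ratio, DMSO), from -0.20 to 0.18 for Dusp16 (ratio, DMSO), from -0.00820 to 0.93 for Dusp8 (ratio, LPS), from -0.15 to 0.0731 for Dusp16 (ratio, LPS), from -0.23 to 0.94 for Dusp5 (change of ratio, LPS), from -0.62 to 0.32 for Dusp8 (change of ratio, TM7nox), from -0.00753 to 0.23 for Dusp4 (IgG). Changes of the ratio of members not listed, such as Dusp10 and Dusp16 (LPS against DMSO), turned sign in such fits too.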
